A study of Mus musculus with 10 samples.

Results

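The genes described here encode the machinery with which a nerve terminal stores, primes and releases transmitter vesicles. They are 44 genes listed by their function: SNARE proteins, synaptotagmins, complexins, synapsins, vesicle membrane proteins, active zone scaffolds, Rab3 GTPases, the vesicular glutamate transporter Slc17a7 and a few genes of vesicle recycling. All 44 were among the 30935 genes of the deposited count table, and all 44 were among the 15488 genes with enough counts to be tested. The smallest count of any of them in any library was 92. RNA of the cerebral cortex was sequenced from mice at postnatal day 8. The wild-type group (Rbfox1 +/+) held 5 libraries, numbered 2, 4, 5, 6 and 7. The other group was homozygous for a deletion of HAR.505, a human accelerated region in the Rbfox1 locus, and held 5 libraries, numbered 1, 3, 5, 6 and 8. It is called knockout here, as in its labels. The allele is a deletion of this element, and counts per gene do not show the element itself. The design text describes the samples of each genotype as independent. The labels give no strain, sex or litter. The RNA came from whole tissue, so that values are averages over all cell types in the dissected piece.

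Vesicle release works through a few interlocking steps. SNARE proteins on the vesicle (the Vamp or synaptobrevin family) and on the plasma membrane (Stx1a and Snap25) zip together and pull the membranes into contact, and Nsf with its adaptors Napa and Napb takes the spent complexes apart. Synaptotagmins sense calcium, complexins clamp and then promote fusion, synapsins hold the reserve of vesicles, and the active zone scaffolds Rims, Unc13, Bsn, Pclo and Erc place primed vesicles beside the calcium channels. In the cortex the early postnatal weeks are the time when synapses form in great number, and many of these families switch or add paralogs as terminals mature.

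Sequences upstream of the starts were examined because many presynaptic genes are known to carry sites for the neuronal repressor REST and for the activators CREB and NRF1. RefSeq promoter entries of the build GRCm38.p6, which is not the build of the counts, matched 35 of the 44 members by gene identifier with 46 start sites. Of the windows of 250 bases before each start, the member windows had a median GC content of 61.0%, against 52.4% for all 32851 entries. The cAMP response element TGACGTCA was present, on either strand, in 1.55% of all windows and among members in that of Syn1. TTCAGCACC, the left arm of the REST element RE1, was present in 0.301% of all windows and among members again in that of Syn1. CGCATGCG, the palindromic core of the NRF1 site, was present in 1.55% of all windows and among members in those of Syn1 and Bsn, the latter at a pair of places. The matches do not overlap each other. TATAAA was present in 12.4% of all windows and among members in those of Rab3b and Sv2b. A match of letters describes the window and says nothing of binding in these samples.

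The 4 windows printed here are those of Syn1 and Bsn, the members of highest level in their families, whose matches are in capitals, and of Cplx1 and Rims3, which had opposite signs among the members with the smallest p and hold none of these motifs. Each is read 5′ to 3′ on the strand of the gene and ends at the base before the start. They lie at chrX:20920919-20921168 (minus strand) for Syn1, chr9:108190384-108190633 (minus) for Bsn, chr5:108550028-108550277 (minus) for Cplx1 and chr4:120854549-120854798 (plus) for Rims3.
Syn1: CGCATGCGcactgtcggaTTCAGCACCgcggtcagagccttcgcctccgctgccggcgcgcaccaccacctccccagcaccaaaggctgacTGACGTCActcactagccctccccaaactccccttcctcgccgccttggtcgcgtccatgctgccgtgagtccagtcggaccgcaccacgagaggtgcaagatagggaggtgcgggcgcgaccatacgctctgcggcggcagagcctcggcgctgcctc
Bsn: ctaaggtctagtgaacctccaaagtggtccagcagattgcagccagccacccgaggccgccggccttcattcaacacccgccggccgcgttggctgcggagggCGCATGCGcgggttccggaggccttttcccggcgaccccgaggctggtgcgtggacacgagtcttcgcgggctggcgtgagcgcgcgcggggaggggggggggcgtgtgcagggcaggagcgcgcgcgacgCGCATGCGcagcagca
Cplx1: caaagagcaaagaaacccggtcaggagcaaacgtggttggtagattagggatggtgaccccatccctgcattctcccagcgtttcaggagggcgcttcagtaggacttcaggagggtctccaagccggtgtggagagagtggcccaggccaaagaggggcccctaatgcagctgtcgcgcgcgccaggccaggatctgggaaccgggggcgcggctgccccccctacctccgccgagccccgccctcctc
Rims3: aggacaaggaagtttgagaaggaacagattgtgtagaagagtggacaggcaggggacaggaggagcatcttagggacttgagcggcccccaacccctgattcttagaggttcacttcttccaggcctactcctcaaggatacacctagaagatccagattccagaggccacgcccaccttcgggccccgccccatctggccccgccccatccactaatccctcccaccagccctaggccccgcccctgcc
In the Syn1 window the NRF1 core begins 250 bases, the RE1 arm 232 bases and the cAMP response element 159 bases before the start, and in the Bsn window the NRF1 cores begin 147 and 16 bases before it. Both genes had log2 fold changes near 0, at -0.04 and -0.01, in the comparison of the genotypes described further on.

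Library totals lay between 16479594 and 22391943 counts. Levels below are in CPM, the count of a gene relative to a library total scaled by the trimmed mean of M-values, and differences are log2 fold changes of knockout against wild type from edgeR's quasi-likelihood fit over all tested genes, with its standard error (SE) and a p-value adjusted by the Benjamini-Hochberg method over the 15488 genes. Rbfox1 itself ran from 205 to 238 CPM in wild type and from 191 to 247 in knockout, with a log2 fold change of -0.06 (SE 0.0626, edgeR adjusted p = 0.879). The 8 markers of cortical projection neurons were all detected in every library. Markers of neighbouring tissue varied between libraries. The summed level of 14 striatal projection neuron markers ran from 446 to 596 CPM in wild type and from 356 to 498 in knockout, with 2 of the 14 called lower (Six3 and Penk) and Isl1 at 0 in at least 1 library. That of 10 choroid plexus markers ran from 251 to 316 CPM in wild type and from 18.3 to 232 in knockout, with 2 of the 10 called lower (Clic6 and Tmem72). Ttr alone made up 85.1 to 88.6% of that sum in wild type, was not called and was at 0 in knockout replicate 3. That of 10 interneuron markers, 9 of them tested, ran from 868 to 940 CPM in wild type and from 722 to 926 in knockout, with 1 called lower (Slc32a1). The summed level of 6 thalamic markers ran from 120 to 146 CPM in wild type and from 117 to 136 in knockout, with 0 of the 5 tested called. Slc17a6 made up most of it at 81.0 to 105 CPM, and Gbx2 was at 0 in 9 of the 10 libraries. In a bulk sample, fewer cells of a type and less RNA per cell cannot be told apart.

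Knockout replicate 8 stood apart from the other knockout libraries for these genes. It was the lowest of the 10 libraries for 16 of the 44 members (36.4%), against 11.5% of all tested genes, and the highest for none of them. Its median level over the members, relative to the wild-type mean, was -0.036 on the log2 scale. Those of knockout replicates 1, 3, 5 and 6 were 0.065, 0.035, 0.048 and 0.066, while the wild-type libraries lay between -0.053 and 0.043. In the same library the summed projection neuron markers reached 962 CPM, against 713 to 779 in the other 9 libraries. Its interneuron markers summed to 722 CPM, the lowest value of any library, against 819 to 940. The part of this library's cell composition in its member levels was not tested. Among wild-type libraries, replicate 2 was also low for these genes. It had the lowest median of the 10 libraries, -0.053. It was the lowest for 9 of the 44 members (20.5%), against 9.2% of all tested genes, and the highest for 1. Without wild-type replicate 2 the median log2 fold change of the members was 0.020, against 0.026 with all libraries. Results are given with all 10 libraries, and without knockout replicate 8 where that changed a call.

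**Figure D1:**
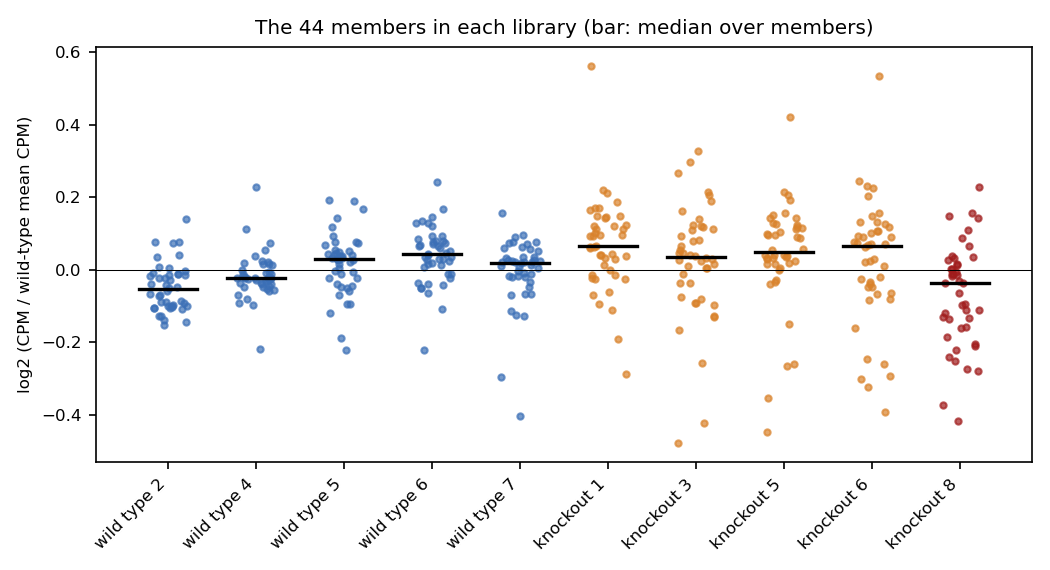
Each point is 1 of the 44 members in 1 library (horizontal axis), placed by its log2 level relative to its wild-type mean (vertical axis), and each line is the median of a library. Medians run from -0.053 to 0.043 in wild type; among knockout libraries, replicate 8 has the only negative median, -0.036.

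No member passed the test between the genotypes. With edgeR, 0 of 44 were called at an adjusted p under 0.05, where 59 of all tested genes were called (0.381%). DESeq2 and limma-voom also called 0 of the 44, against 0.801% and 0.291% of all tested genes. At an unadjusted p under 0.05, 10 members stood out (22.7%), 7 of them with higher and 3 with lower means in the knockout, against 8.71% of all tested genes (4.19% higher and 4.52% lower). DESeq2 gave 11 such members and limma-voom 10, against 9.01% and 9.15%. The 10 are Snap25, Napa, Syt11, Cplx1, Syngr1, Rims2 and Rab3b with higher means, and Synpr, Sv2c and Rims3 with lower means. Some depended on single libraries. Over the 10 edgeR fits that each left out 1 library, Syt11 kept an unadjusted p under 0.05 in 4 and Syngr1 in 6. Rab3b kept it in 7, Rims2 in 8 and Napa in 9, and Snap25, Cplx1, Synpr, Sv2c and Rims3 in all 10. The median log2 fold change over the members was 0.026, with 28 positive and 16 negative values, and over all tested genes it was -0.0021, with 49.1% positive. All 44 log2 fold changes lay between -0.25 and 0.16.

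The size of what could have been missed is set by these errors. The median SE of a member was 0.052 on the log2 scale. The 95% interval of the fold change lay within 1.2-fold in either direction for 36 of the 44 members, the exceptions being Vamp1, Syt2, Syt12, Synpr, Sv2c, Rims3, Pclo and Rab3b, and within 1.5-fold for all 44. Only Syt5 had every knockout library above every wild-type library, and no member had the reverse order, against 0.93% and 0.897% of all tested genes. Spread within the knockout group was wider, with a median coefficient of variation over members of 7.71% against 4.78% in wild type. It was larger in the knockout for 32 of the 44 members, against 62.2% of all tested genes, and for 21 of the 44 when knockout replicate 8 was left out.

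Leaving out knockout replicate 8 was the only omission of a single library that led to a call of any member. Without it 3 members were called by edgeR: Snap25 (log2 fold change 0.18, SE 0.0434, adjusted p = 0.0318) and Syngr1 (0.19, SE 0.0441, adjusted p = 0.0171) as higher and Rims3 (-0.21, SE 0.0516, adjusted p = 0.0307) as lower in the knockout. The same fit called 182 of 15633 tested genes (1.16%; 0.62% higher and 0.544% lower). At an unadjusted p under 0.05 it gave 15 members with higher and 4 with lower means (43.2% of members), against 11.6% of all tested genes (6.01% higher and 5.58% lower). The groups no longer overlapped for 6 members higher in the 4 remaining knockout libraries (Snap25, Napb, Syt5, Syt11, Syngr1 and Slc17a7) and for 1 lower (Rims3), against 2.36% and 1.99% of all tested genes. The sign changed for 5 members that were not called in either fit: Nsf (from -0.02 to 0.04), Syn2 (from -0.0054 to 0.08), Syngr3 (from -0.03 to 0.01), Bsn (from -0.01 to 0.02) and Erc1 (from -0.0011 to 0.0057). Another 15 kept their sign and changed in size by over 1.5 times, 13 of them away from 0 (all but Syn1 and Unc13c). Among these, the log2 fold change went from 0.08 to 0.13 for Napb, from 0.07 to 0.12 for Syp, from 0.06 to 0.13 for Sv2b and from 0.10 to 0.15 for Rab3c, and each of these 4 had an unadjusted p under 0.05 without this library and not with all 10. Each library was left out in turn, and this one is described because it changed the calls. It was also the lowest of the 10 libraries for 16 of the 44 members, so that its omission raised their knockout means. The larger member shares in this fit follow in part from that choice and are no separate support for a difference.

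**Figure D2:**
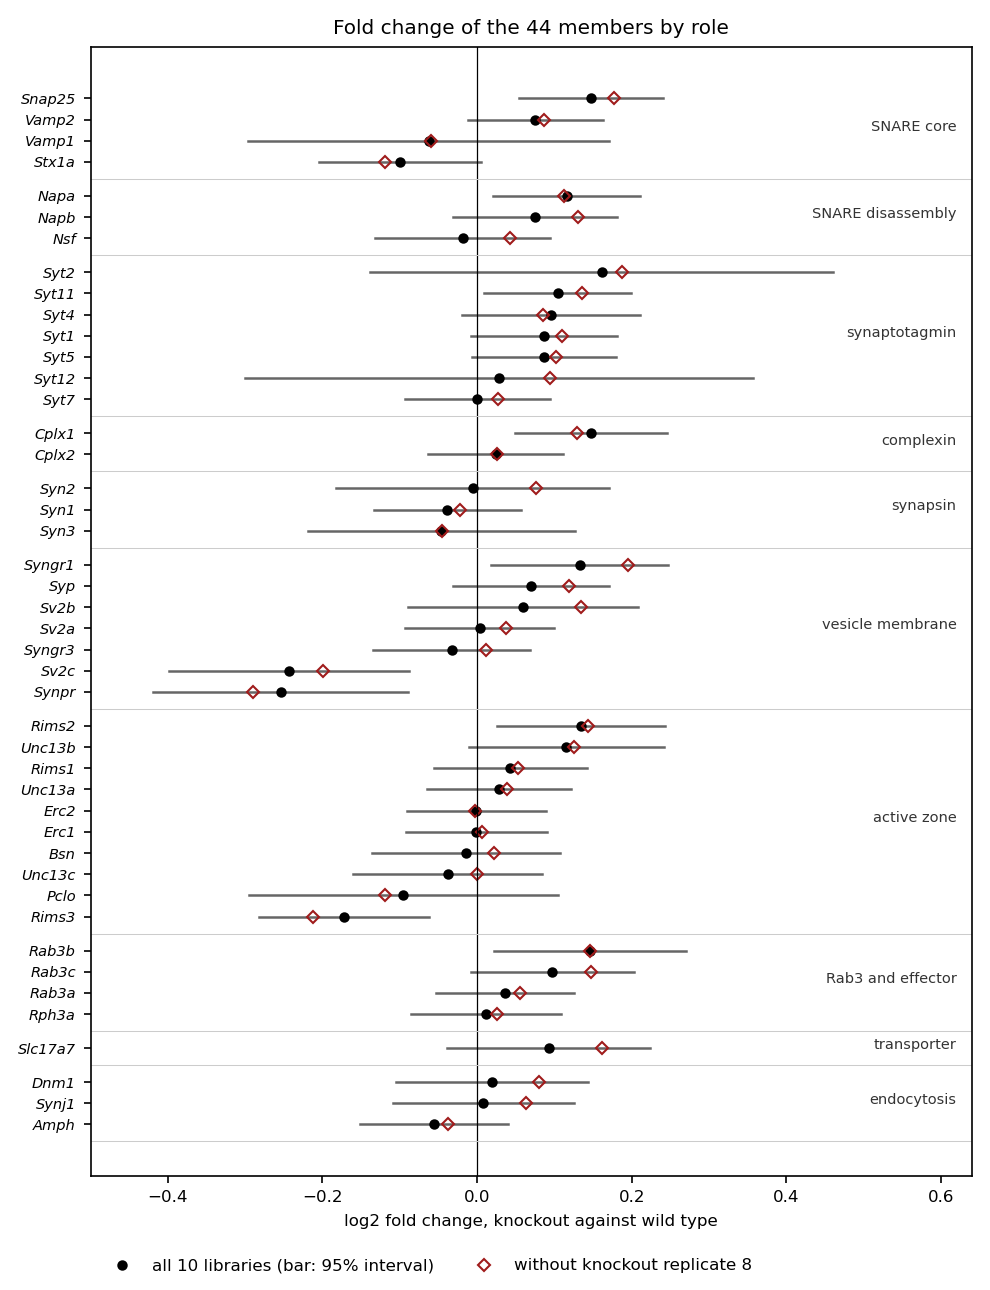
Log2 fold change of each of the 44 members (horizontal axis, knockout against wild type), grouped by role: filled circles with 95% intervals show the fit with all 10 libraries, and open diamonds the fit without knockout replicate 8. With all libraries the values run from -0.25 (Synpr) to 0.16 (Syt2) and none passes the test.

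Among the SNARE proteins, Snap25, the plasma membrane SNARE that contributes a pair of helices to the fusion complex, had the smallest p of the core. Wild type gave 616, 651, 683, 683 and 664 CPM in the order of their numbers, and knockout 742, 760, 702, 771 and 676. The 4 knockout libraries other than replicate 8 were above every wild-type library, and replicate 8 lay within the wild-type range. Means were 659 ± 28.0 and 730 ± 40.2 CPM (SD, n = 5 each), or 0.15 as a log2 fold change (SE 0.0456, edgeR adjusted p = 0.229). Vamp2, the main vesicle SNARE of forebrain synapses, held 900, 949, 995, 1023 and 972 CPM in wild type and 1038, 1033, 971, 1062 and 995 in knockout. These ranges overlapped, with means of 968 ± 46.7 and 1020 ± 36.3 CPM (SD, n = 5 each) and a log2 fold change of 0.08 (SE 0.0429, edgeR adjusted p = 0.667). Its paralog Vamp1, better known from brainstem and motor terminals, was low at 14.2 to 22 CPM in wild type and 13.8 to 19.6 in knockout (log2 fold change -0.06). Stx1a, the syntaxin of the plasma membrane, ran from 258 to 301 CPM in wild type and from 231 to 275 in knockout (log2 fold change -0.10).

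Of the genes that recycle the SNARE complex, Napa (alpha-SNAP, the widely expressed adaptor) had wild-type values of 134, 134, 143, 135 and 135 CPM and knockout values of 155, 140, 146, 147 and 150. A single wild-type library, replicate 5, reached into the knockout range. The means were 136 ± 3.75 and 148 ± 5.54 CPM (SD, n = 5 each), with a log2 fold change of 0.12 (SE 0.0465, edgeR adjusted p = 0.423). Napb (beta-SNAP, the neuronal adaptor) held 452, 485, 498, 490 and 474 CPM in wild type and 512, 537, 516, 531 and 430 in knockout. Replicate 8 was the lowest of all 10 libraries and the other knockouts were all above wild type, so that the means of 480 ± 17.9 and 505.3 ± 43.4 CPM (SD, n = 5 each) differed by a log2 fold change of 0.08 (SE 0.0519, edgeR adjusted p = 0.752). Nsf, the ATPase itself, showed the same low replicate 8, at 403 CPM against 491 to 513 in the other knockouts and 460 to 516 in wild type (log2 fold change -0.02).

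All 7 synaptotagmins among the members had positive log2 fold changes, with a median of 0.09, though 0 were called and 1 had an unadjusted p under 0.05. Synaptotagmins of the wider list described further on differed in sign: Syt3, Syt6, Syt13 and Syt16 were positive, and Syt9, Syt10 and Syt17 negative. The 12 calcium sensors of that list had 5 positive and 7 negative values, with a median of -0.018. Syt1, the fast calcium sensor of forebrain synapses, held 1014, 1086, 1118, 1226 and 1188 CPM in wild type and 1226, 1215, 1221, 1189 and 1129 in knockout. The wild-type range covered the whole knockout range. Means were 1126 ± 83.6 and 1196 ± 39.9 CPM (SD, n = 5 each), or 0.09 as a log2 fold change (SE 0.0464, edgeR adjusted p = 0.630). Syt11, a synaptotagmin that does not bind calcium, held 581, 623, 644, 678 and 647 CPM in wild type and 702, 687, 706, 689 and 628 in knockout. Again the 4 knockouts other than replicate 8 exceeded every wild-type library, and the means of 635 ± 35.9 and 682 ± 31.2 CPM (SD, n = 5 each) gave a log2 fold change of 0.10 (SE 0.0464, edgeR adjusted p = 0.502).

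Syt5 was the member whose groups did not overlap with all 10 libraries: 143 to 151 CPM in wild type and 151 to 162 in knockout. The gap between the groups was under 1 CPM, and the log2 fold change was 0.09 (SE 0.0455, edgeR adjusted p = 0.625). Syt4, a synaptotagmin of dense-core and other secretory vesicles, ran from 314 to 347 CPM in wild type and from 294 to 379 in knockout (log2 fold change 0.10). Syt7, the high-affinity sensor of slow and facilitated release, ran from 279 to 311 and from 274 to 304 CPM (log2 fold change 0.00). Syt2, the fast sensor of hindbrain and some inhibitory terminals, lay at 9.41 to 13.2 CPM in wild type and 8.80 to 17.1 in knockout (log2 fold change 0.16, SE 0.146). Syt12 lay between 5.51 and 9.75 CPM over all 10 libraries (log2 fold change 0.03, SE 0.161).

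The complexins bind the assembled SNARE complex. Cplx1 held 278, 284, 307, 294 and 297 CPM in wild type and 318, 306, 304, 346 and 342 in knockout. Only wild-type replicate 5 reached the range of the knockouts, and knockout replicates 6 and 8 were the highest of the 10 libraries. Means were 292 ± 11.3 and 323 ± 20 CPM (SD, n = 5 each), or 0.15 as a log2 fold change (SE 0.0480, edgeR adjusted p = 0.264). For Cplx2, the more abundant complexin of cortical excitatory neurons, the values were 1284, 1302, 1369, 1348 and 1303 CPM in wild type and, in knockout, 1464, 1254, 1360, 1292 and 1346. The knockouts held both the lowest and the highest of the 10 values, and the means of 1321 ± 35.8 and 1343 ± 79.6 CPM (SD, n = 5 each) gave a log2 fold change of 0.02 (SE 0.0428, edgeR adjusted p = 0.944).

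The synapsins, phosphoproteins on the vesicle surface, all had negative log2 fold changes, from -0.05 to -0.0054, and none had an unadjusted p under 0.05. Without knockout replicate 8 the value of Syn2 turned to 0.08. Syn1 held 482, 491, 547, 547 and 526 CPM in wild type and 530, 487, 518, 504.6 and 486 in knockout. The groups overlapped throughout, with means of 519 ± 30.7 and 505.02 ± 19.3 CPM (SD, n = 5 each) and a log2 fold change of -0.04 (SE 0.0467, edgeR adjusted p = 0.903). Syn2 ran from 384 to 443 CPM in wild type and from 412 to 463 in 4 knockouts, with replicate 8 at 327. Syn3 lay between 27.9 and 40.0 CPM over all 10 libraries.

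Vesicle membrane proteins included members with the lowest and with some of the higher fold changes. Synpr (synaptoporin, a synaptophysin relative of mossy fibre and interneuron terminals) held 109, 106, 124, 94.6 and 117 CPM in wild type and 105, 79.2, 86.2, 89.5 and 102 in knockout. Knockout replicates 3, 5 and 6 were below every wild-type library, and replicates 1 and 8 were within the wild-type range. Means were 110 ± 11.2 and 92.4 ± 10.9 CPM (SD, n = 5 each), or -0.25 as a log2 fold change (SE 0.0785, edgeR adjusted p = 0.261). Sv2c, the SV2 paralog of basal ganglia and some inhibitory neurons, held 57.8, 57.4, 68.1, 60.3 and 54.8 CPM in wild type and 55.9, 44.6, 58.3, 48.7 and 44.7 in knockout. Replicates 3, 6 and 8 were below the wild-type range, with means of 59.7 ± 5.09 and 50.4 ± 6.36 CPM (SD, n = 5 each) and a log2 fold change of -0.24 (SE 0.0759, edgeR adjusted p = 0.243). Both genes had an unadjusted p under 0.05 with any single library left out, and both were called lower when genes with low counts were kept in the fit (adjusted p = 0.00234 for Synpr and 0.0357 for Sv2c), in a fit that called 0.733% of its genes and 0.412% as lower. In knockout replicates 3, 5 and 6 the choroid plexus marker sums were 18.3, 20 and 24.8 CPM and the striatal sums 366, 385 and 356, all below the wild-type ranges. In replicates 1 and 8 the choroid plexus sums were 232 and 100.2 CPM, also below the wild-type range. The striatal sum of replicate 1, 381 CPM, was below the wild-type range too, and that of replicate 8, 498 CPM, was within it. Without replicates 3, 5 and 6 together the log2 fold change was -0.09 for Synpr and -0.24 for Sv2c. With the mean log2 level of the striatal markers as a covariate the log2 fold changes were -0.017 for Synpr and -0.12 for Sv2c, and with that of the choroid plexus markers 0.015 and -0.18, so that Synpr turned sign. What part cell composition has in these values cannot be told apart from genotype, because the marker levels differ with genotype.

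Syngr1 (synaptogyrin, a tetraspan vesicle protein) held 454, 469, 491, 492 and 479 CPM in wild type and 556, 554, 510, 560 and 435 in knockout. Replicate 8 was the lowest of all 10 libraries, and the other knockouts were all above wild type. Means were 477 ± 16.1 and 523 ± 53.1 CPM (SD, n = 5 each), or 0.13 as a log2 fold change (SE 0.0556, edgeR adjusted p = 0.453), which was -0.0027 with the striatal covariate. Syp (synaptophysin, a tetraspan partner of synaptobrevin) held 841, 886, 873, 817 and 851 CPM in wild type and 957, 928, 864, 952 and 778 in knockout. Knockout replicates 1, 3 and 6 were above the wild-type range and replicate 8 was below it, and the means of 854 ± 27.2 and 896 ± 75.7 CPM (SD, n = 5 each) gave a log2 fold change of 0.07 (SE 0.0493, edgeR adjusted p = 0.773). Sv2a, the SV2 form found at most synapses, held 358, 374, 395, 387 and 404 CPM in wild type and 396, 392, 394, 390 and 351 in knockout. Apart from replicate 8 the knockouts lay within the wild-type range, with means of 384 ± 18.2 and 385 ± 18.9 CPM (SD, n = 5 each) and a log2 fold change of 0.0031 (SE 0.0471, edgeR adjusted p = 0.995). Sv2b ran from 311 to 368 CPM in wild type and from 368 to 388 in 4 knockouts, with replicate 8 at 285 (log2 fold change 0.06). Syngr3 ran from 212 to 232 CPM in wild type and from 191 to 225 in knockout (log2 fold change -0.03).

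**Figure D3:**
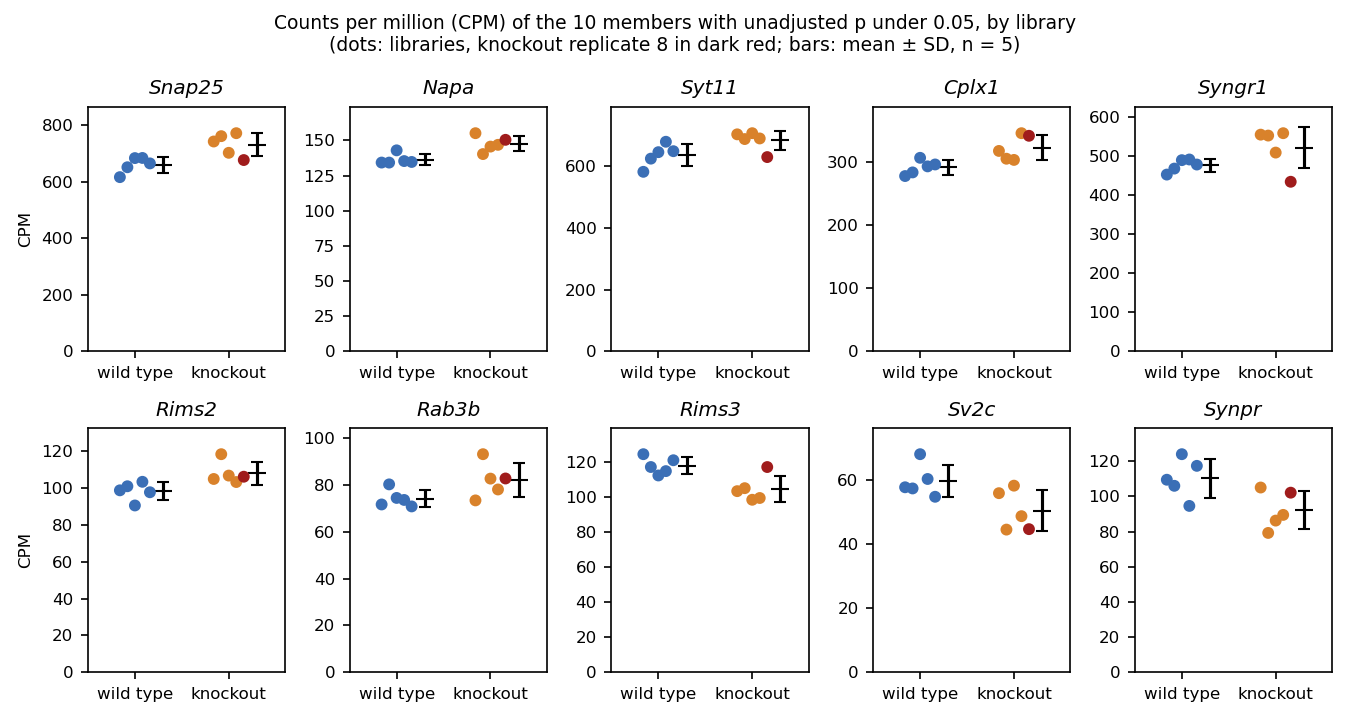
CPM of the 10 members with an unadjusted p under 0.05 in each of the 10 libraries; each panel is 1 gene with its own vertical axis, points are libraries, and bars mark the group mean with its SD (n = 5 each). Knockout replicate 8 is marked; for Snap25, Syt11 and Syngr1 it is the only knockout library inside or below the wild-type range.

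In the active zone, the Rims proteins tether vesicles to Rab3 and to calcium channels, and their paralogs differed in sign. Rims3, a short form that lacks the Rab3-binding end, held 125, 117, 113, 115 and 121 CPM in wild type and 104, 105, 98.7, 99.7 and 117 in knockout. The knockouts other than replicate 8 were below every wild-type library. Means were 118 ± 4.85 and 105 ± 7.47 CPM (SD, n = 5 each), or -0.17 as a log2 fold change (SE 0.0537, edgeR adjusted p = 0.242). Rims2 held 98.6, 101, 90.4, 103 and 97.6 CPM in wild type and 105, 118, 107, 103 and 106 in knockout. Wild-type replicate 6 and knockout replicate 6 lay close together and the other libraries were separate, with means of 98.1 ± 4.83 and 108 ± 6.0 CPM (SD, n = 5 each) and a log2 fold change of 0.13 (SE 0.0533, edgeR adjusted p = 0.419). Rims1 held 210, 224, 219, 248 and 227 CPM in wild type and 232, 233, 246, 222 and 228 in knockout. The wild-type libraries held both the lowest and the highest value, and the means of 225 ± 14.1 and 232 ± 8.92 CPM (SD, n = 5 each) gave a log2 fold change of 0.04 (SE 0.0486, edgeR adjusted p = 0.892).

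The giant scaffold Bsn (Bassoon) held 463, 393, 406, 430 and 406 CPM in wild type and 456, 384, 463, 397 and 376 in knockout. Both groups had the same upper end, and means of 419 ± 27.7 and 415 ± 41.4 CPM (SD, n = 5 each) gave a log2 fold change of -0.01 (SE 0.0589, edgeR adjusted p = 0.981). Its relative Pclo (Piccolo) ran from 221 to 305 CPM in wild type and from 215 to 278 in knockout (log2 fold change -0.10). Unc13a, the main priming factor of glutamatergic terminals, held 422, 404, 434, 442 and 419 CPM in wild type and 442, 429, 462, 406 and 423 in knockout. These ranges overlapped, with means of 424 ± 14.7 and 432 ± 21.2 CPM (SD, n = 5 each) and a log2 fold change of 0.03 (SE 0.0455, edgeR adjusted p = 0.935). Unc13b ran from 61.8 to 69.5 and from 64.9 to 81.2 CPM (log2 fold change 0.12), and Unc13c, best known from the cerebellum, from 74.2 to 84.8 and from 70.7 to 86.2 CPM (log2 fold change -0.04).

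The Erc scaffolds had log2 fold changes near 0. Erc2 held 344, 361, 374, 373 and 380 CPM in wild type and 370, 363, 377, 350 and 370 in knockout. The knockout range lay inside the wild-type range, with means of 366 ± 14.2 and 366 ± 10.4 CPM (SD, n = 5 each) and a log2 fold change of -0.0011 (SE 0.0441, edgeR adjusted p = 0.998). Erc1 ran from 292 to 326 CPM in wild type and from 303 to 323 in knockout, with a log2 fold change that was also -0.0011.

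Rab3 GTPases dock vesicles through Rims and Rph3a, and all 4 genes of this group had positive log2 fold changes. Rab3b held 71.6, 80.1, 74.3, 73.5 and 70.7 CPM in wild type and 73.3, 93.0, 82.6, 77.9 and 82.6 in knockout. Knockout replicates 1 and 6 lay within the wild-type range and the other 3 above it. Means were 74.0 ± 3.69 and 81.9 ± 7.31 CPM (SD, n = 5 each), or 0.15 as a log2 fold change (SE 0.0607, edgeR adjusted p = 0.446), which was -0.028 with the choroid plexus covariate. Rab3a, the best known form of forebrain terminals, held 448, 441, 465, 438 and 473 CPM in wild type and 473, 456, 466, 482 and 444 in knockout. The groups overlapped, with means of 453 ± 15.4 and 464 ± 15 CPM (SD, n = 5 each) and a log2 fold change of 0.04 (SE 0.0435, edgeR adjusted p = 0.902). Rab3c ran from 491 to 557 CPM in wild type and from 549 to 606 in 4 knockouts, with replicate 8 at 484 (log2 fold change 0.10). The Rab3 effector Rph3a ran from 247 to 276 and from 243 to 279 CPM (log2 fold change 0.01).

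Slc17a7 (VGLUT1), which loads vesicles with glutamate in cortical projection neurons, held 867, 899, 958, 971 and 940 CPM in wild type and 1075, 980, 1015, 1068 and 805 in knockout. Replicate 8 was the lowest of the 10 libraries, and every other knockout library was above every wild-type library. Means were 927 ± 43.1 and 989 ± 110 CPM (SD, n = 5 each), or 0.09 as a log2 fold change (SE 0.0627, edgeR adjusted p = 0.752). Without replicate 8 the log2 fold change was 0.16 and the adjusted p was 0.0510. The low Slc17a7 of this library stood beside the highest projection neuron marker sum of all libraries. Of the recycling genes, Dnm1 (dynamin 1, which cuts vesicles from the membrane) ran from 678 to 799 CPM in wild type and from 618 to 790 in knockout (log2 fold change 0.02). Amph, which recruits dynamin, had a log2 fold change of -0.06, and Synj1, which removes the clathrin coat after uptake, 0.0080.

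The order of paralogs at postnatal day 8 was read from CPM per kilobase of exon, taken as the mean over all 10 libraries, and a step was counted where the ranges over the libraries did not overlap. Cplx2 (270), Vamp2 (261), Rab3a (206), Slc17a7 (178) and Syp (168) had the highest levels per kilobase of exon of all members, and Syt12 (1.23), Syt2 (1.6), Vamp1 (1.81), Syn3 (2.80) and Unc13b (3.02) the lowest. Within the vesicle SNAREs, Vamp2 was 144 times the level of Vamp1 per kilobase of exon and 58.7 times per kilobase of coding sequence. Among synaptotagmins the order was Syt1 (139) and Syt11 (127), whose ranges overlapped, then Syt4 (87.3), Syt5 (64.2) and Syt7 (39.1), and far below them Syt2 and Syt12, whose ranges also overlapped. Cplx2 stood above Cplx1 (140). Syn1 (155) stood above Syn2 (60.0) and Syn3. Syp stood above Syngr3 (105) and Syngr1 (104), which overlapped, and all 3 above Synpr (10.7). The SV2 order was Sv2a (82.8), Sv2b (41.9) and Sv2c (5.68).

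For the active zone the levels per kilobase were Rims1 31.1, Rims3 14.0 and Rims2 9.91. Bsn (26.2) stood above Pclo (11.1), Unc13a (33.9) above Unc13c (9.01) and Unc13b, and Erc2 (37.6) above Erc1 (19.2). The CPM ranges of Unc13c and Unc13b overlapped, so the step between them rests on length. Unc13b was given 22746 bases of exon and 15555 of coding sequence, against 8796 and 6630 for Unc13c. Rab3a stood above Rab3c (44.9) and Rab3b (22.1), and Napb (69.8) above Napa (37.5). When levels were divided by coding length in place of exon length, the same gene led 10 of the 12 families. The exceptions were Rims, where Rims3 then led, and Rab3, where Rab3c then led. Of the 10, the leads of Syn1 over Syn2 and of Sv2a over Sv2b were no longer steps by coding length, since their ranges over the libraries overlapped (228 to 258 and 179 to 254 for the synapsins, 158 to 182 and 139 to 189 for the SV2 genes, in CPM per kilobase of coding sequence). Syt7 also stood above Syt5, and Syngr1 above Syngr3, by coding length. The highest members were then Cplx2 (3314), Vamp2 (1976), Snap25 (944), Syt1 (919) and Syp (838), so that the places of Rab3a and Slc17a7 hold for exon length alone. The lowest by coding length were Unc13b (4.42), Syt12 (5.38), Syt2 (9.67), Unc13c (11.95) and Pclo (16.3). The places of Syn3 (19.6) and Vamp1 (33.6) among the lowest therefore also hold for exon length alone.

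**Figure D4:**
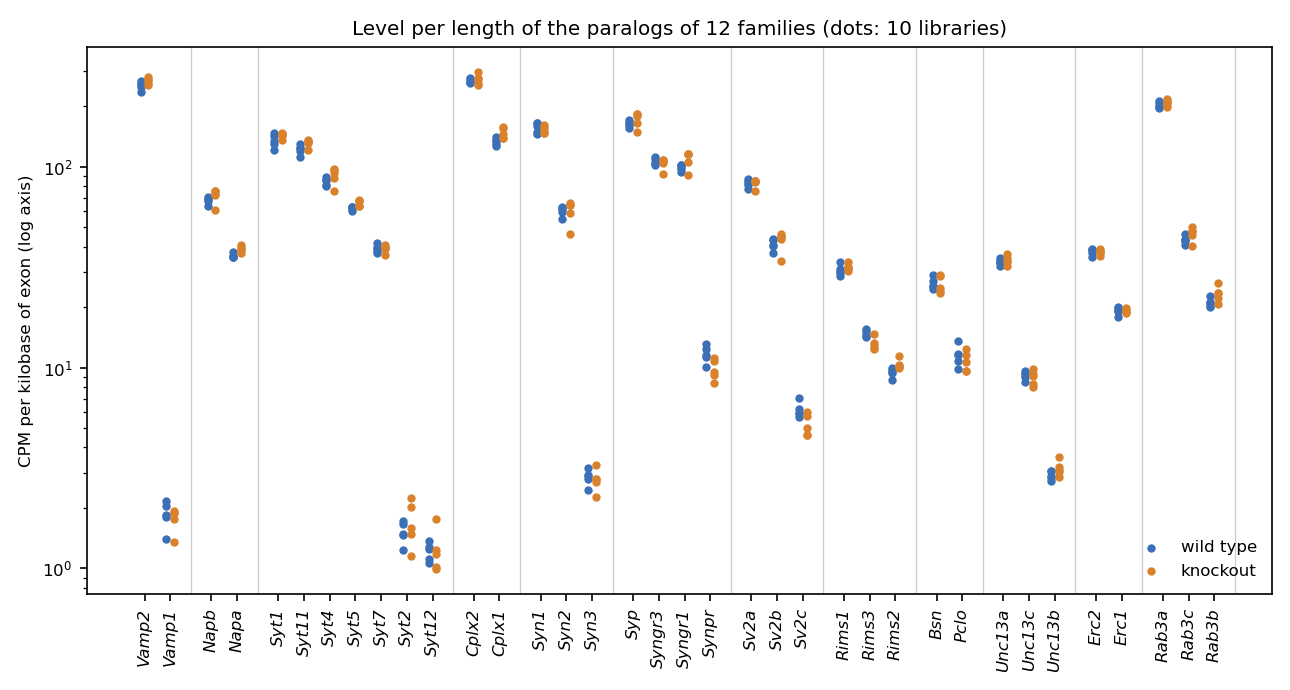
Level per kilobase of exon (CPM per kilobase, log axis) of the members of 12 families, each point 1 library coloured by genotype. Means over the 10 libraries run from 1.23 (Syt12) to 270 (Cplx2), and Vamp2 lies 144 times above Vamp1 on this scale (58.7 times by coding length).

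A paralog's share of its family's summed level per kilobase does not depend on the scaling between libraries. Of the 36 shares within the 12 families, 1 had separate groups (2.78%), that of Rims2, where the levels of 1.83% of all tested genes had separate groups in either direction. The latter figure is for levels, and shares within a family depend on each other, so it is no expected rate for shares. The Rims2 share was 17.2 ± 0.50% in wild type (SD, n = 5; 16.6 to 17.7) and 18.8 ± 0.82% in knockout (SD, n = 5; 18.3 to 20.2). The mean share of Rims3 went from 27.0 to 23.9% and that of Rims1 from 55.8 to 57.3%, both with overlapping groups. The order of the Rims genes by group mean was the same in both genotypes. The Vamp2 share of the Vamp pair was 99.3 ± 0.12% in wild type and 99.3 ± 0.070% in knockout (SD, n = 5 each).

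A wider list of 83 other presynaptic genes was read in the same fit, 81 of which were tested. It called 0 of them higher and 1 lower, against 0.187% and 0.194% of all tested genes. The 1 called was Slc32a1, the vesicular GABA transporter, which also serves as an interneuron marker above. It held 114, 112, 131, 104 and 109 CPM in wild type and 94.8, 84.9, 87.0, 99.3 and 86.8 in knockout. Every knockout library was below every wild-type library, and the means of 114 ± 10.4 and 90.6 ± 6.18 CPM (SD, n = 5 each) differed by a log2 fold change of -0.33 (SE 0.0606, edgeR adjusted p = 0.00989). Without wild-type replicate 5 it was -0.27 with an adjusted p of 0.0515. With the striatal covariate it was -0.20 and with the choroid plexus covariate -0.28, and it was not called in either fit.

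At an unadjusted p under 0.05 the wider list held 2 genes with higher means, the liprin Ppfia3 (log2 fold change 0.14, edgeR adjusted p = 0.363) and the Rims-binding protein Rimbp2 (0.11, edgeR adjusted p = 0.546), against 4.19% of all tested genes, and only Slc32a1 with a lower mean. The next smallest p-values were those of Stxbp6 (log2 fold change 0.12), the SNARE Vamp4 (0.11) and Rab3d (-0.15). Of the 81, 48 had positive and 33 negative log2 fold changes, with a median of 0.013. The 12 tested subunits of the vesicle proton pump, which energises transmitter loading, had 10 positive and 2 negative values with a median of 0.05, and 0 were called. The 21 other genes listed under vesicle recycling, Stxbp6 among them, had 10 positive and 11 negative values with a median of -0.00049.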

How the data were processed

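The authors deposited a table of raw read counts per gene for the 10 libraries. Total RNA was prepared with an RNeasy kit, per the labels' protocols. HISAT2 (alignment), featureCounts (counting) and the build mm39 are listed, per the submitters' processing notes. Their versions, the annotation and the strand setting are not given in the sources used, so reads of overlapping or antisense genes, and reads shared by near-identical copies, cannot be told apart. Symbols came from a RefSeq table (GRCm38.p6), which matched 30648 of 30935 identifiers. Gene lengths came from GENCODE M21, as exon or coding unions, and gene levels per kilobase therefore rest on another annotation than the counts.

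Genes were kept by edgeR's filterByExpr, scaled by TMM and tested for genotype alone with edgeR 4.0.16 (glmQLFit with robust dispersions, glmQLFTest; R 4.3.3), with Benjamini-Hochberg adjustment over 15488 genes and a threshold of 0.05. DESeq2 1.42.0, limma-voom 3.58.1, other scalings and filters, covariates, a replicate block and omission of each library were alternatives. The test was checked on simulated counts with changes of 1.5-fold or more in some genes and none in the others. The simulation held no changes as small as those of the members and no outlying library, so it does not cover these cases. Pairs of libraries of 1 genotype differed by more than sampling noise (chi-square per degree of freedom 4.10 to 13.9), so each counted as 1 replicate. Library values were given for members called or with an unadjusted p under 0.05 and for the member of highest level per length in each of 12 families, and for Slc17a7, which was added after its values were seen; of the other presynaptic genes, those called and the 6 of smallest p were named. The members and lists were chosen with earlier results of these data known.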

Additional observations from a re-analysis of the deposited data

Results flagged for a closer look

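Within a genotype, a single library lay far from the other 4 for 11 of the 88 groups of 5 libraries (44 genes in each of the 2 genotypes). For independent values, chance alone marks about 1 group in 20. These groups share the same 10 libraries and are not independent. The same share over all tested genes was not counted, so the number is not a result particular to the members. In 8 of the 11 it was knockout replicate 8, at the low end. Its levels were 403 CPM for Nsf (491 to 513 in the other knockouts), 430 for Napb (512 to 537), 628 for Syt11 (687 to 706) and 191 for Syngr3 (217 to 225). They were 351 CPM for Sv2a (390.0 to 396), 285 for Sv2b (368 to 388), 618 for Dnm1 (743 to 790) and 260 for Synj1 (307 to 323). These genes belong to different steps of the cycle: SNARE recycling, calcium sensing, the vesicle membrane and uptake. The other 3 flags were Vamp1 in knockout replicate 5, low at 13.8 CPM (18.0 to 19.6 in the other knockouts), Rims2 in knockout replicate 3, high at 118 CPM (103 to 107), and Napa in wild-type replicate 5, high at 143 CPM (134 to 135 in the other wild-type libraries).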

How the results depend on the processing

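The count of members called was 0 under RLE and upper quartile scaling, a filter of 50 counts in 5 libraries, DESeq2, limma-voom, non-robust dispersions, a sex covariate, an adjusted p under 0.1, both marker covariates, the replicate block and without knockout replicates 3, 5 and 6 together. It was 2 with no filter on low counts and 0 to 3 when each library was left out. The count at an unadjusted p under 0.05 was 1 with the replicate block (3.52% of all tested genes), 3 with the striatal (4.11%) and 3 with the choroid plexus covariate (4.96%), 4 without knockout replicates 3, 5 and 6 together (6.75%), and 6 to 19 with each library left out. The member median ran from -0.013 (striatal covariate) to 0.059 (without knockout replicate 8). Signs reversed for Syngr1 (-0.0027, striatal), Synpr (0.015, choroid plexus) and Rab3b (-0.028, choroid plexus); the cause was not tested. Between 0 and 15 of 44 members changed sign across settings. Without knockout replicate 8 the count of members with separate groups was 7.

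Among the other presynaptic genes 0 were called with the replicate block, the striatal covariate, the choroid plexus covariate or without knockout replicates 3, 5 and 6 together, and 0 to 1 with each library left out. Over all genes, calls numbered 124 with DESeq2, 171 with no filter, 27 with the replicate block, 28 with the sex covariate, 12 without knockout replicates 3, 5 and 6 and 0 with the striatal or 0 with the choroid plexus covariate (636 and 768 at an unadjusted p under 0.05), and 15 to 182 with each library left out. Only replicate numbers 5 and 6 occur in both genotypes. Their deviations from the group means correlated at -0.03 and -0.06, so the numbers gave no sign of pairing and the block removes most of the data. At these depths, members under about 20 CPM (Syt2, Syt12, Vamp1) carried SEs of 0.114 to 0.161.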

Other observations

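The vesicular transporters of other transmitters were read in the same fit. Slc17a6 (VGLUT2), the glutamate transporter of thalamic and early cortical terminals, ran from 81.0 to 98.7 CPM in wild type and from 81.0 to 105 in knockout, with a log2 fold change of -0.02 (SE 0.0679). Slc17a8 (VGLUT3) lay between 2.05 and 4.70 CPM over all 10 libraries, and the monoamine transporter Slc18a2 between 8.89 and 13.5. The acetylcholine transporter Slc18a3 was near the limit of detection, at 0.306 to 2.03 CPM. Slc30a3, which loads zinc into glutamatergic vesicles, ran from 52.9 to 58.7 CPM in wild type and from 51.3 to 65.1 in knockout (log2 fold change 0.04). None of these 5 was called by edgeR's quasi-likelihood test, and none had an unadjusted p under 0.05, while Slc32a1 was called lower. Whether the difference of Slc32a1 is separate from those of Slc17a7 or Slc17a6 was not tested.

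Knockout replicate 8 was also low for genes outside the members. Syt17 stood at 24.6 CPM there and between 43.5 and 52.4 in the other 9 libraries, and Syt9 at 14.5 against 20.1 to 25.4. In the same library Cplx3, a complexin of subplate and deep layer neurons, was the highest of all at 18.6 CPM against 11.7 to 15.7, and Syt6 at 37.1 against 19.7 to 31.7. These 4 genes were singled out after their values were seen.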
